A study of Sus scrofa with 15 samples.

Results

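The CCN family is a group of 6 secreted matricellular proteins, CCN1 to CCN6, and the transcripts of all 6 were listed among the 30476 genes counted in piglet testis RNA. The members were taken by gene symbol, 1 row of the table each, and not by their measured values. Earlier results of these data were known when the family was chosen. Of the 6 members, 5 had enough reads to be tested between diets, and CCN6 did not. Nothing is said of the order of levels between members, because transcript lengths were not used here.

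Matricellular proteins are deposited in the extracellular matrix and signal to cells rather than hold the tissue together. CCN proteins bind integrins, heparan sulfate proteoglycans and growth factors, and CCN1 and CCN2 are standard target genes of the mechanically regulated coactivators YAP and TAZ, of TGF-beta and of serum response factor. In many tissues they are made by smooth muscle cells, fibroblasts and endothelial cells. The testis holds such cells as the contractile peritubular myoid layer around the seminiferous tubules, the vessel walls and the capsule.

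Male piglets of Dutch Landrace Duroc sows, drawn from several litters, stayed with the sow until postnatal day 2 and were then fed 1 of 5 diets until day 21. The study's abstract calls the piglets White-Dutch Landrace. The diets were sow milk (Sow), a cow's milk formula (Milk), a soy formula (Soy), the Milk formula with 17beta-estradiol (M + E2), and the Milk formula with genistein, a soy isoflavone (M + G). For Soy, the labels name the treatment soy protein isolate. The labels give 84 mg/L for genistein, and the sources differ on whether this was meant for serum or for the diet. All piglets were killed at day 21, and frozen testis was sequenced, with 1 library per piglet and 3 libraries per diet, 15 in all. A single library of Sow and a single library of Soy carry no number in the column names and are called unnumbered here.

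Each library held between 6097552 and 9488579 reads on genes, with a median of 8198038. Levels are given as CPM, the reads of a gene relative to the TMM-scaled total of its library. Sow 2, which the study excluded, is shown in all levels but was left out of the tests, so that Sow has 2 libraries there and 14 libraries entered the fit. The markers that define testis were present. The summed level of 7 Leydig cell markers ranged from 12536.2 to 29698.7 CPM, that of 9 Sertoli cell markers from 1382.3 to 3478.3 CPM and that of 5 germ cell markers from 98.7 to 271.1 CPM. In whole tissue, fewer cells of a type and less RNA per cell cannot be told apart. Nothing in the sources says that a piglet was sampled more than once, and the p-values measure the spread between these libraries.

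CCN1, also called CYR61 (ENSSSCG00000006940, Sscrofa11.1 chr4:130392404-130395179), is a matrix-bound ligand of integrins that acts in vessel growth and wound repair. Its level was 12, 8.32 and 41.7 CPM in Sow unnumbered, Sow 2 and Sow 3. It was 65.5, 176 and 46.4 CPM in Milk 1, Milk 2 and Milk 3, and 24.3, 30.2 and 106 CPM in Soy unnumbered, Soy 2 and Soy 3. It was 24.0, 36.8 and 35.6 CPM in M + E2 1, M + E2 2 and M + E2 3, and 29.9, 138 and 45.3 CPM in M + G 1, M + G 2 and M + G 3. A single library stood far above the other libraries of its diet in Milk, Soy and M + G, and the lowest and the highest of the 15 libraries, Sow 2 and Milk 2, differed 21.2-fold.

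CCN2, also called CTGF (ENSSSCG00000004192, chr1:31674398-31677697), is a cofactor of TGF-beta in connective tissue and a marker of fibrosis. It was counted at 58.0, 59.9 and 119 CPM in Sow (unnumbered, 2 and 3), and at 112, 247 and 83.2 CPM in Milk (1, 2 and 3). In Soy (unnumbered, 2 and 3) it was counted at 66.5, 77.8 and 199 CPM. The M + E2 libraries had 40.3, 71.2 and 70.1 CPM and the M + G libraries 67.8, 177 and 66.4 CPM, in the order 1, 2 and 3. Milk 2, Soy 3 and M + G 2 were again the 3 highest libraries, and M + E2 1 was the lowest.

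CCN3, also called NOV (ENSSSCG00000006002, chr4:19505698-19514481), is a member that is often regulated in the opposite direction to CCN2 and is made by vascular and neural cells among others. Its level was 6.05, 7.01 and 15.5 CPM in Sow (unnumbered, 2 and 3), 35.9, 161 and 13.7 CPM in Milk (1, 2 and 3), and 15.0, 16.6 and 152 CPM in Soy (unnumbered, 2 and 3). The M + G libraries had 15.1, 53.1 and 13.7 CPM. The M + E2 libraries had 7.80, 8.31 and 8.84 CPM, a range of 1.13-fold and a coefficient of variation of 6.23%, against 113% in Milk, 129% in Soy, 81.9% in M + G and 54.4% in Sow. These M + E2 values rest on 54 to 83 reads, where counting error alone adds spread. The closeness of 3 such values does not show that the level was uniform. Milk 2, Soy 3 and M + G 2 were highest in CCN3 as in CCN2, and the M + E2 libraries were below all 9 libraries of Milk, Soy and M + G, as in 2.59% of all genes.

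CCN4, also called WISP1 (ENSSSCG00000005946, chr4:8078163-8110906), was found as a target of Wnt signaling and occurs in connective tissue. It had 14.3, 15.2 and 18.7 CPM in Sow (unnumbered, 2 and 3), 18.8, 32.1 and 25.5 CPM in Milk (1, 2 and 3) and 15.5, 17.9 and 36.7 CPM in Soy (unnumbered, 2 and 3). It had 19.1, 22.6 and 18.8 CPM in M + E2 and 16.8, 45.5 and 20.2 CPM in M + G, in the order 1, 2 and 3. The same 3 libraries were highest, but the whole range was 3.19-fold.

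CCN5, also called WISP2 (ENSSSCG00000031648, chr17:47131236-47146455), lacks the C-terminal domain of the other members and is best known from smooth muscle, where it restrains growth, and from estrogen-treated breast cancer cells. It had 10.5, 6.72 and 7.79 CPM in Sow (unnumbered, 2 and 3), 12.6, 9.55 and 9.34 CPM in Milk (1, 2 and 3) and 10.9, 8.44 and 7.41 CPM in Soy (unnumbered, 2 and 3). It had 10.8, 11.1 and 9.16 CPM in M + E2 and 10.3, 11.3 and 19.8 CPM in M + G, in the order 1, 2 and 3. Milk 2, Soy 3 and M + G 2 were not high for CCN5, the highest library was M + G 3, and the diets overlapped.

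CCN6, also called WISP3 (ENSSSCG00000004422, chr1:78005442-78020595), is the member in which mutations cause a cartilage disorder. It was counted with 1 to 6 reads per library, between 0.125 and 0.668 CPM, near the 3 reads that a count of 0 would still allow. Without a filter on low counts, when 26965 genes were tested, its adjusted p ranged from 0.924 to 1 over the 8 comparisons. No difference of CCN6 between diets was detectable at this depth, and such counts cover counting error only.

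**Figure D1:**
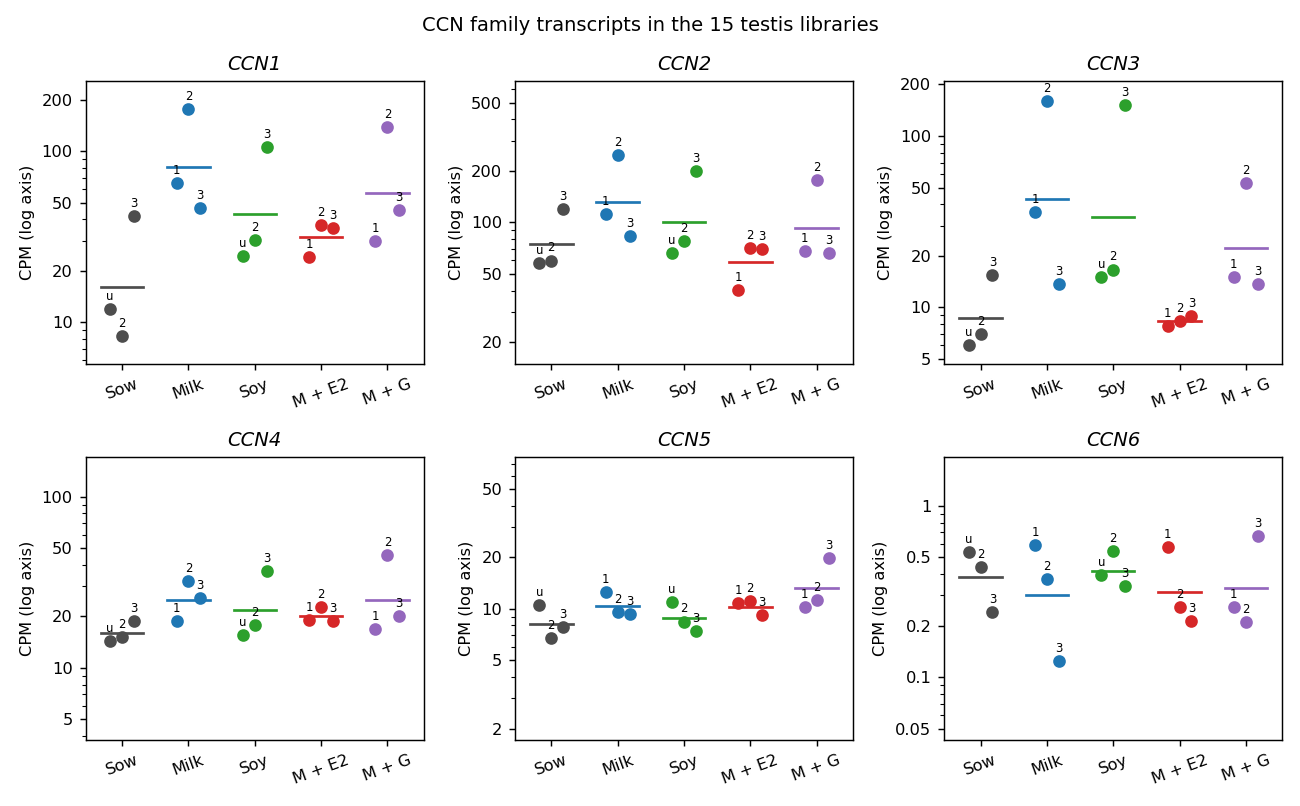
Level of each CCN member in CPM (log axis, the same height in fold in every panel) by diet. Each point is a library with its number (u, unnumbered), and each bar is the geometric mean of the 3 libraries of a diet, Sow 2 included. Milk 2, Soy 3 and M + G 2 sit above the other libraries for CCN1 to CCN4, and the 3 M + E2 libraries of CCN3 lie between 7.80 and 8.84 CPM.

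For CCN1, CCN2, CCN3 and CCN4, Milk 2, Soy 3 and M + G 2 each were the highest of their own diet and also higher than all of the other 12 libraries. These 3 libraries were singled out after the values were seen. Of the 15328 genes that passed the filter over 15 libraries, 10.4% had each of the 3 as the highest of its diet, and 5.04% had all 3 above the other 12. In Sow, Sow 3 was the highest library of CCN1 to CCN4.

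The spread between libraries of the same diet was accordingly large. The pooled within-diet SD of log2 CPM was 1.3 for CCN3, and 99.5% of the genes had a smaller value. It was 1.02 for CCN1, larger than in 98.4% of the genes, and 0.72 for CCN2, larger than in 93.5%. CCN4, with an SD of 0.496, exceeded 77.4% of the genes, and CCN5, with 0.322, was close to the median gene at 0.34. The share of the variation that lay between diets was 47.6% for CCN1, 31.3% for CCN2, 45.7% for CCN3, 25.5% for CCN4 and 44.3% for CCN5, beside 48.7% for the median gene.

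**Figure D2:**
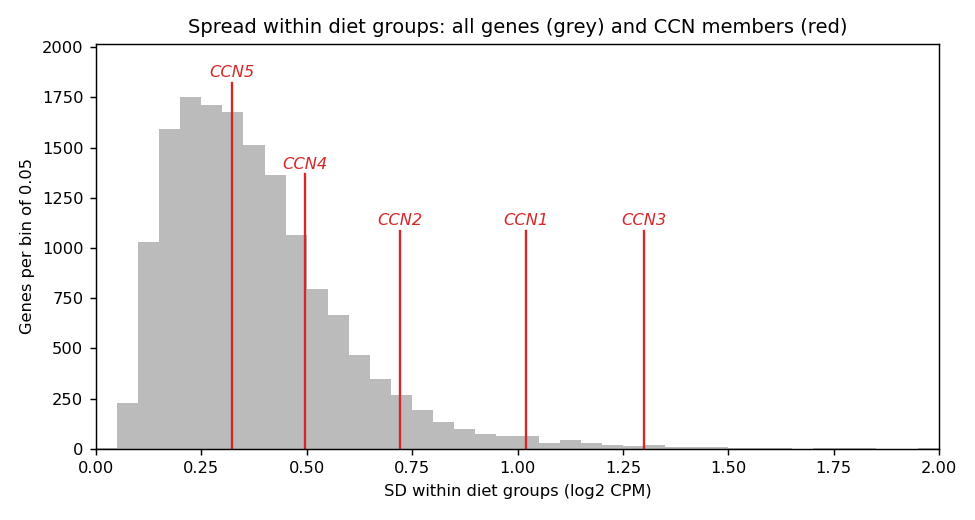
Number of genes (grey bars, bins of 0.05) by their pooled SD of log2 CPM between libraries of the same diet, over 15 libraries. Red lines mark the 5 tested CCN members, with CCN5 near the median of 0.34 and CCN3 at 1.3 in the far tail.

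None of the 5 tested members differed between diets by the rule of an adjusted p of 0.05 or less and at least a 2-fold change (F test of edgeR's quasi-likelihood fit, Benjamini-Hochberg adjustment over all 15634 genes). This held for M + E2 against Sow, where 5.0% of all genes were called (781 genes, and 6 when any single M + E2 library was left out), for M + G against Sow (0.0576% of genes), Soy against Sow (0.0128%), Milk against Sow (0.0192%) and Soy against M + E2 (0.147%). Against Milk, no gene of the table was called (0%) in Soy, M + G or M + E2 by this test, and 2.44%, 2.60% and 17.7% of genes had an unadjusted p below 0.05. In a single test over the 5 diets, in which 0.0640% of genes had an adjusted p of 0.05 or less, the adjusted p was 0.379 for CCN1, 0.453 for CCN2, 0.254 for CCN3, 0.647 for CCN4 and 0.448 for CCN5. Of the 40 combinations of a member and a comparison, 7 had an unadjusted p below 0.05, all of them for CCN1, CCN2 or CCN3. They were CCN1, CCN2 and CCN3 lower in M + E2 than in Milk, as were 10.5% of genes at that p, CCN1 and CCN3 higher in Milk than in Sow (6.13% of genes), CCN3 higher in Soy than in Sow (7.53%) and CCN3 higher in Soy than in M + E2 (8.37%). The DESeq2 Wald test called 0 members in the 8 comparisons. Of all 15634 genes, it called 1376 in M + E2 against Sow and 343 in M + G against Sow. It called 143 in Soy against M + E2, 122 in M + E2 against Milk and between 2 and 34 in each other comparison.

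The question of M + E2 against Milk is what the hormone adds to the same formula. Mean CCN3 was 8.32 CPM in M + E2 and 70.2 CPM in Milk, and the log2 difference was −3.09 ± 1.02 (SE, n = 3 and 3), with a 95% interval from −5.29 to −0.89 and an adjusted p of 0.207. CCN2 averaged 60.5 and 147 CPM, with a log2 difference of −1.30 ± 0.529 and an adjusted p of 0.245. CCN1 averaged 32.1 and 96.0 CPM, with a log2 difference of −1.60 ± 0.702 and an adjusted p of 0.266. For these 3 members every M + E2 library was below every Milk library, as was the case for 7.77% of all genes. CCN4 (log2 difference −0.36, interval −1.17 to 0.46) and CCN5 (−0.04, interval −0.62 to 0.53) had intervals on both sides of 0.

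These differences leaned on Milk 2. Without it, the log2 difference between M + E2 and Milk was −1.61 for CCN3, −0.84 for CCN1 and −0.73 for CCN2. Without Milk 3, the Milk library with the least CCN3, the difference of CCN3 was −3.58 and was called at an adjusted p of 0.0307, in a setting in which 1256 of 15620 genes were called. The edgeR exact test, which the study used, called CCN3 with a log2 difference of −3.08 and an adjusted p of 0.0156, among 92 called genes of 14470. Over all alternatives the adjusted p of CCN3 ranged from 0.0156 to 0.566, the latter without Milk 2.

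In Soy against M + E2, the member with the largest difference was CCN3. With means of 61.2 and 8.32 CPM, Soy was higher than M + E2 by 2.94 ± 1.02 on the log2 scale (interval 0.75 to 5.13, adjusted p = 0.25), without overlap, as for 7.78% of genes in that direction. The exact test called it at 2.91 with an adjusted p of 0.0253, among 203 called genes of 14630. Without Soy 3 the difference was 0.98. CCN1, CCN2, CCN4 and CCN5 in M + E2 overlapped the 9 libraries of Milk, Soy and M + G, unlike CCN3. Relative to M + E2, Soy differed in CCN2 by 0.98 (interval −0.16 to 2.11), in CCN1 by 0.79 (−0.70 to 2.29), in CCN4 by 0.27 (−0.54 to 1.09) and in CCN5 by −0.16 (−0.74 to 0.42).

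Against Sow, the 4 formula diets share the same control libraries, so their values are set side by side only. CCN3 differed by 2.65 ± 1.17 in Milk (adjusted p = 0.403), 2.5 ± 1.16 in Soy (0.333), 1.31 ± 1.12 in M + G (0.473) and −0.44 ± 1.12 in M + E2 (0.813) on the log2 scale. CCN1 differed by 1.80 ± 0.821 in Milk (adjusted p = 0.409), 0.99 ± 0.798 in Soy (0.493), 1.38 ± 0.807 in M + G (0.303) and 0.20 ± 0.785 in M + E2 (0.88). In Milk, CCN1 and CCN4 were higher than in Sow in every library, as were 15.7% of all genes. CCN2 differed from Sow by between −0.61 in M + E2 and 0.69 in Milk, and CCN4 by between 0.23 in M + E2 and 0.71 in M + G. In M + E2, CCN4 was above Sow in every library, which was so for 33.6% of genes. CCN5 differed by between −0.05 in Soy and 0.56 in M + G.

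With only 2 Sow libraries in the fit, 1 library carried much weight. Without Sow 3 and with Sow 2 back, CCN1 in M + G exceeded Sow by 2.81 with an adjusted p of 0.0353, in a setting in which 2039 of 15641 genes were called. CCN1 then exceeded Sow by 3.24 in Milk, and CCN3 by 3.43 in Milk, 3.23 in Soy and 2.07 in M + G. Without Milk 2 the differences of Milk were 1.03 for CCN1 and 1.17 for CCN3, without Soy 3 that of CCN3 in Soy was 0.54, and without M + G 2 those of M + G were 0.45 for CCN1 and 0.38 for CCN3. With all 3 Sow libraries, the differences of CCN1 were 2.21 in Milk, 1.36 in Soy, 1.78 in M + G and 0.63 in M + E2, and no member was called.

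Neither M + G nor Soy differed from Milk past the test for any member. M + G differed from Milk by −0.42 in CCN1 (interval −1.88 to 1.05), −0.49 in CCN2 (−1.61 to 0.63), −1.34 in CCN3 (−3.36 to 0.67), 0.12 in CCN4 (−0.68 to 0.93) and 0.40 in CCN5 (−0.17 to 0.97). Soy differed from Milk by −0.80 in CCN1 (−2.28 to 0.67), −0.33 in CCN2 (−1.44 to 0.79), −0.15 in CCN3 (−2.12 to 1.82), −0.09 in CCN4 (−0.90 to 0.72) and −0.20 in CCN5 (−0.78 to 0.38). The intervals of CCN1 to CCN3 include changes of more than 2-fold, so the data do not show that these diets were alike. Without Milk 2 the difference of CCN3 was 0.14 for M + G and 1.33 for Soy, and without M + G 2 it was −2.27 for M + G.

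**Figure D3:**
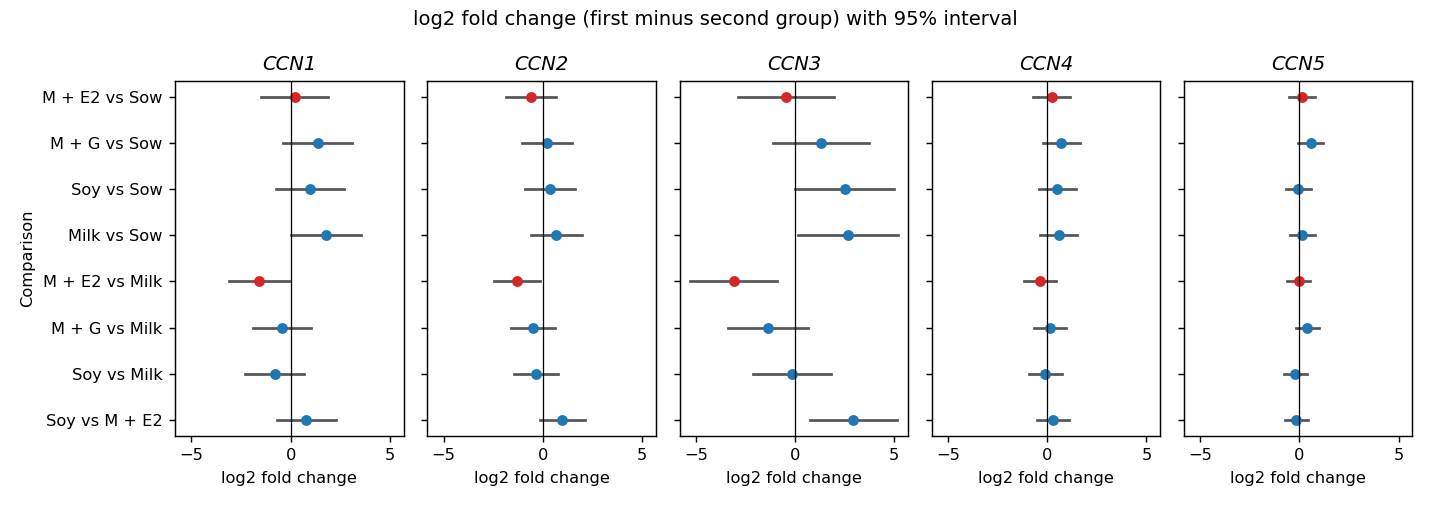
Log2 fold change (first minus second diet) of the 5 tested members in the 8 comparisons, with 95% intervals from the fit of 14 libraries. Red points are comparisons of M + E2 with Sow or Milk and blue points the others. The intervals of CCN3 are the widest, and those of CCN1, CCN2 and CCN3 in M + E2 against Milk lie below 0.

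CCN1 to CCN4 rose and fell together from library to library, and CCN5 did not follow them. Over the 15 libraries, 10 pairs of members were compared on log2 CPM with permutation tests of 100000 resamples, adjusted over the 10 pairs. CCN2 and CCN3 had r = 0.927 (adjusted permutation p = 1e-04) and rho = 0.882 (5e-04). CCN1 had r = 0.861 and rho = 0.879 with CCN2, r = 0.87 and rho = 0.796 with CCN3, and r = 0.865 and rho = 0.836 with CCN4, with adjusted permutation p of at most 0.00165. CCN4 had r = 0.788 and rho = 0.643 with CCN2 (adjusted permutation p 0.00196 and 0.0237), and r = 0.769 and rho = 0.518 with CCN3 (0.00323 and 0.0867). CCN5 had r between −0.196 and 0.165 with the others, and adjusted permutation p of at least 0.69 for r. These tests treat the 15 libraries as exchangeable and leave diets out of account. They also ignore any pairing of Milk and M + G libraries by number, such as Milk 2 with M + G 2. The labels give no such pairing. The tests do not set the members apart from other genes. Of all genes, 5.04% also had Milk 2, Soy 3 and M + G 2 above the other 12 libraries. How often pairs of other genes reach such an r was not tested.

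The 2 libraries farthest from the median were Milk 2 and either Sow 2 or Soy 3, and without them r was between 0.642 and 0.884 for the 6 pairs among CCN1 to CCN4. Over the 12 libraries other than Milk 2, Soy 3 and M + G 2, r was 0.606 between CCN1 and CCN2, 0.726 between CCN1 and CCN3, 0.715 between CCN1 and CCN4, and 0.72 between CCN2 and CCN3. It was 0.267 between CCN2 and CCN4 and 0.213 between CCN3 and CCN4, so the relations of CCN4 with CCN2 and CCN3 rested on the 3 high libraries. Deviations from the diet means were taken over all 15 libraries, with Milk 2, Soy 3 and M + G 2 included. Among them r was 0.957 between CCN1 and CCN2, 0.932 between CCN2 and CCN3, and between 0.794 and 0.894 for the remaining pairs of CCN1 to CCN4.

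The same 3 libraries carried the most RNA of contractile cells. The summed level of the 9 peritubular myoid and smooth muscle markers was 3903.6 CPM in Milk 2, 4877.4 CPM in Soy 3 and 2831.8 CPM in M + G 2. In the other 12 libraries it lay between 406.3 CPM in Sow 2 and 1195.9 CPM in Milk 1, and Sow 3 at 824.8 CPM was the highest of Sow. All 9 markers were counted, and for 8 of them the 3 libraries were above the other 12, beside 5.04% of all genes. ACTA2, the actin of smooth muscle, had 1476 CPM in Milk 2, 1636 CPM in Soy 3 and 1142 CPM in M + G 2, against 140 to 471 CPM elsewhere. The 9 fibroblast markers together had 33070.8, 35394.7 and 29702.2 CPM in these libraries and between 5129.5 and 14486.5 CPM in the other 12, but the 3 libraries were above the other 12 for only 3 of the 9 and the highest of their diets for 5. The part of contractile and connective tissue cells in the levels of CCN1 to CCN4 was not tested.

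Markers of other cells followed the 3 libraries less often than those of smooth muscle. The 3 libraries were each the highest of their diet for 6 of 9 endothelial markers and 6 of 9 macrophage markers, beside 10.4% of all genes. They were so for 2 of 5 germ cell markers and for none of the 7 Leydig, 9 Sertoli, 6 epithelial and 4 erythroid markers that passed the filter. They were above the other 12 libraries for 4 endothelial markers, more than the 3 of fibroblasts, and for 1 macrophage marker, beside 5.04% of all genes. Endothelial markers summed to between 327.1 CPM in a Sow library and 1359.2 CPM in Soy 3, and macrophage markers to between 324.1 CPM in an M + E2 library and 820.1 CPM in Milk 2. The Leydig cell sum was lowest in Milk 2, at 12536.2 CPM. Epithelial markers of duct or mesothelium, led by KRT8, had their highest sum in M + G 2, at 369 CPM, against 57.9 to 315.1 CPM elsewhere.

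In M + E2 against Milk, the 9 smooth muscle markers were all lower in M + E2, with a median log2 difference of −1.10 beside −0.03 over all genes. Of the 9, 0 were called, as were 0 of all 15634 genes in this comparison, so that count does not single out these markers. Other lists moved as well, with 6 of 9 fibroblast markers (median −0.60), 8 of 9 endothelial markers (−0.18) and 8 of 9 macrophage markers (−0.49) lower and 9 of 9 Sertoli cell markers (0.63) higher in M + E2. The macrophage sum was 401.6, 820.1 and 375.3 CPM in Milk 1, 2 and 3 and 446.4, 391.6 and 324.1 CPM in M + E2 1, 2 and 3. The summed level of the smooth muscle markers was 732.5, 999.6 and 917.5 CPM in M + E2 1, M + E2 2 and M + E2 3. The 4 other libraries with sums within that range, Sow 3, Soy 2, M + G 1 and M + G 3, had between 13.7 and 16.6 CPM of CCN3, above the 7.80 to 8.84 CPM of M + E2. The libraries with the lowest sums, Sow unnumbered and Sow 2 at 472.3 and 406.3 CPM, had 6.05 and 7.01 CPM of CCN3, below M + E2. This range was chosen after the values were seen, and the part of smooth muscle content in the level of CCN3 was not tested. With Milk 2, Soy 3 and M + G 2 all left out, CCN3 differed by −1.61 between M + E2 and Milk (adjusted p = 0.163) and by 0.98 between Soy and M + E2 (adjusted p = 0.214, both by edgeR's quasi-likelihood fit).

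**Figure D4:**
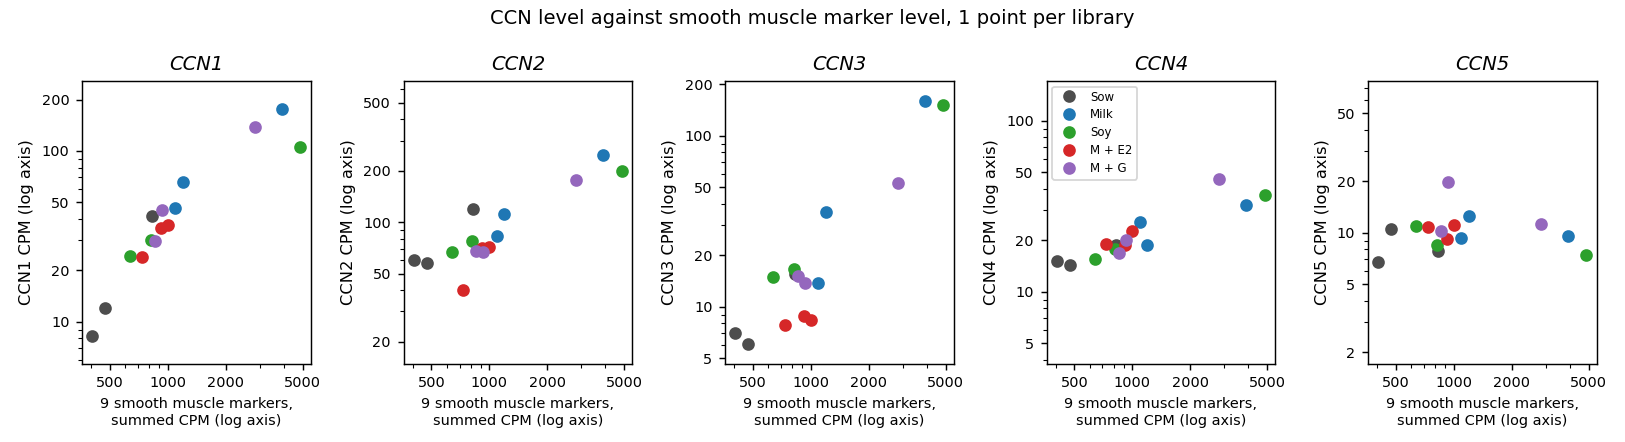
Level of each tested CCN member (CPM, log axis, same height in fold in every panel) against the summed CPM of 9 peritubular myoid and smooth muscle markers (log axis), with 1 point per library, coloured by diet. The 3 libraries at the right, from 2831.8 CPM of markers up, are Milk 2, Soy 3 and M + G 2, and the libraries with the least CCN3 are Sow unnumbered and Sow 2 at 6.05 and 7.01 CPM, followed by the 3 M + E2 libraries.

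The genes whose levels were most like those of a member over the 15 libraries, among 12293 genes with a symbol, are given here by member. For CCN1 they were SLIT2, a secreted guidance cue (r = 0.972), MMP23B, a metalloproteinase (0.97), and COL1A1, a chain of type I collagen (0.969). For CCN2 they were TAGLN, an actin-binding protein of smooth muscle (0.957), LOX, which cross-links collagen (0.951), and SGCD, a sarcoglycan of muscle membranes (0.95). For CCN4 they were DZIP1L, a protein of primary cilia (0.946), COL3A1, the chain of type III collagen (0.944), and SEMA3B, a secreted semaphorin (0.939). COL1A1, COL3A1 and TAGLN are also in the marker lists above.

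CCN3 was most like LMO2, a transcriptional cofactor of endothelial and blood cells (r = 0.966), ID4, an inhibitor of basic helix-loop-helix factors (0.964), and PLCL1, a phospholipase C-like protein (0.961). ID4 had 76.1 CPM in Milk 2, 49.0 CPM in Soy 3 and 32.2 CPM in M + G 2, and between 3.50 and 21.9 CPM in the other 12 libraries. CCN5 was most like KNOP1, a nucleolar protein (0.865), ZNF575, a zinc finger protein (0.814), and CDC37, a cochaperone of HSP90 (0.811), none of which followed the 3 high libraries. Over the 12 libraries other than these 3, r was between 0.787 and 0.944 for the genes like CCN1 to CCN4, and between 0.807 and 0.904 for those like CCN5. These coefficients are descriptions over libraries that share their diets and were the highest of many.

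**Figure D5:**
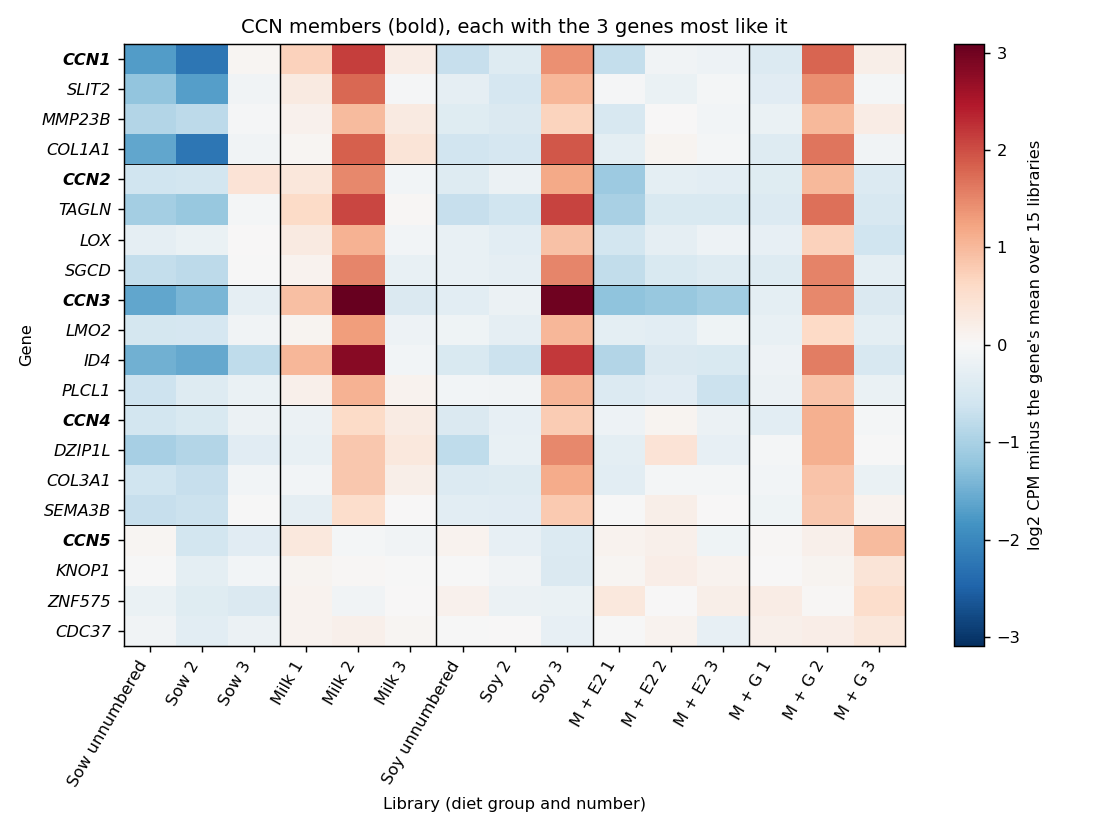
Heat map of log2 CPM minus the gene's mean over 15 libraries (blue, lower, and red, higher) for the 5 tested CCN members, in bold, each above the 3 genes most like it. Columns are libraries in order of diet. Milk 2, Soy 3 and M + G 2 are red from CCN1 to SEMA3B, and M + G 3 is the reddest column of CCN5 and its 3 genes.

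The counts of called genes that follow are from the quasi-likelihood fit. Since that fit called no gene of the table against Milk (0%), calls among the other genes of the pathways around CCN proteins could come only from the remaining comparisons. In M + E2 against Milk, the exact test called 92 of 14470 genes and the DESeq2 Wald test 122 of 15634. The study also reported differentially expressed genes there. Of the YAP and TAZ pathway, 16 of 17 listed genes were tested and 0 were called in the 8 comparisons. Of all genes, 5.0% were called in M + E2 against Sow and at most 0.147% in each other comparison. Beside such shares, 0 calls in a list this short do not single it out. Its most abundant members, MOB1A and STK3, which belong to the kinase module that restrains YAP, ranged from 69.4 to 260.7 CPM and from 87.1 to 223.9 CPM, and both were highest in Sow 2. YAP1 itself, named after its values were seen, ranged from 84.4 to 128 CPM. Of 21 further YAP and TAZ target genes, 17 were tested and 0 were called, beside the same shares of all genes. CCDC80, a matrix protein among these targets, had 345 CPM in Milk 2, 283 CPM in Soy 3 and 234 CPM in M + G 2, against 31.7 to 84.8 CPM in the other 12 libraries, whereas the receptor AXL was highest in M + E2 1. In all, 6 of these 17 targets had the 3 libraries as the highest of their diets, beside 10.4% of all genes.

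Among 15 ligands, receptors, SMAD proteins and targets of TGF-beta, 1 was called, in M + E2 against Sow, where 1.44% of all genes were called higher and 3.56% lower. SMAD7, the inhibitory SMAD, was higher in M + E2 than in Sow by 1.34 ± 0.202 on the log2 scale (adjusted p = 0.0242). It had 51.7, 49.5 and 42.6 CPM in M + E2 1, 2 and 3, and 17.4, 13.6 and 18.8 CPM in Sow unnumbered, Sow 2 and Sow 3. In Milk, Soy and M + G, SMAD7 had 28.9 to 46.0 CPM, also above every Sow library. M + E2 and Sow differ in the formula as well as in estradiol. The most abundant, TGFBR3 and LTBP1, a coreceptor and a latent TGF-beta binding protein, ranged from 81.1 to 224 CPM and from 47.5 to 315.6 CPM. For 8 of the 15 genes, Milk 2, Soy 3 and M + G 2 were the highest of their diets, beside 10.4% of all genes.

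Of the integrins and other binding partners of CCN proteins, 15 of 18 were tested and 0 were called. This stands beside 5.0% of all genes in M + E2 against Sow and at most 0.147% in each other comparison. The most abundant were the proteoglycans DCN, from 447 to 1399 CPM with the highest level in Milk 2, and HSPG2, from 232 to 1461 CPM with the highest level in Soy 3. For 4 of the 15 binding partners the 3 libraries were the highest of their diets, beside 10.4% of all genes.

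Of 15 other matricellular genes, 10 shared that pattern with CCN1 to CCN4, beside 10.4% of all genes. In M + E2 against Sow, 2 were called higher, beside 1.44% of all genes. THBS4, a thrombospondin, was higher in M + E2 than in Sow by 1.82 ± 0.328 (adjusted p = 0.0343), and lower in Soy than in M + E2, with a log2 difference of −1.76 ± 0.282 (adjusted p = 0.0371), where 0.0256% of all genes were called lower. It had 72.4, 68.9 and 44.9 CPM in M + E2 against 19.2, 13.3 and 14.4 CPM in Sow and 20.6, 14 and 18 CPM in Soy, so THBS4 and CCN3 lay in opposite orders in M + E2 and Soy. FBLN2, a fibulin, was higher in M + E2 (227 to 242 CPM) than in Sow (48.5 to 97.5 CPM) by 1.43 ± 0.38 (adjusted p = 0.044). Milk, Soy and M + G had 94.3 to 239 CPM of FBLN2, and Milk and M + G had 13.6 to 54.2 CPM of THBS4. SPARC, the most abundant of them, had 6963 CPM in Milk 2, 5455 CPM in Soy 3 and 5428 CPM in M + G 2, above the 2131 to 3581 CPM of the rest, and FBLN1 was highest in M + G 2.

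Of 16 Wnt target genes 12 were tested. LGR5, a receptor for R-spondin, was higher in M + E2 (26.9 to 33.4 CPM) than in Sow (4.82 to 8.61 CPM) by 1.99 ± 0.414 (adjusted p = 0.0374). In Milk, Soy and M + G, LGR5 had 5.95 to 19.8 CPM. SFRP1 and DKK3, secreted Wnt antagonists, were the most abundant. CCN4, a member first described as a Wnt target, had a log2 difference of 0.23 in M + E2 against Sow. Of 21 immediate early genes, which respond to stimuli and handling within minutes, 16 were tested and 0 were called. This stands beside 5.0% of all genes in M + E2 against Sow and at most 0.147% in each other comparison. EGR1, with a range from 38.4 to 155 CPM, was highest in Milk 2, at 155 CPM, and M + G 2, at 135 CPM. KLF2 was highest in Sow unnumbered. Of the 15 that passed over all libraries, 9 were highest in Milk 2, Soy 3 and M + G 2 within their diets, beside 10.4% of all genes. The part of handling of the tissue in the levels of CCN1 and CCN2 was not tested.

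Of the 67 tested cell type markers, 3 (4.48%) were called, all in M + E2 against Sow, beside 5.0% of all genes in that comparison. STAR, which delivers cholesterol for steroid synthesis in Leydig cells, was lower in M + E2 (787 to 1702 CPM) than in Sow (3089 to 3888 CPM), with a log2 difference of −1.53 ± 0.412 (adjusted p = 0.0449). PDGFRB, a receptor of fibroblasts and pericytes, was higher in M + E2 (259 to 311 CPM) than in Sow (70.2 to 119 CPM) by 1.29 ± 0.335 (adjusted p = 0.0429). In Milk, Soy and M + G, PDGFRB had 125 to 322 CPM and STAR had 1783 to 5308 CPM. SLC4A1, the anion exchanger of red cells, was called higher from few reads, with at most 1.41 CPM in every library but M + G 3 and M + E2 3. All 8 called differences of listed genes, from SMAD7 to SLC4A1, lost their call when any single M + E2 library was left out (adjusted p from 0.0651 to 0.186), settings in which 6 genes of the whole table were called in M + E2 against Sow and 0 in Soy against M + E2. The size of the differences from Sow then changed little for SMAD7 (1.26 to 1.41), LGR5 (1.86 to 2.04) and PDGFRB (1.21 to 1.33). THBS4 in Soy also lost its call without Soy unnumbered or Soy 2. No marker of Sertoli cells (most abundant INHA and AMH), germ cells (KIT and UCHL1), smooth muscle (ACTA2 and TAGLN), endothelium (VWF and PECAM1), epithelium (KRT8 and CLDN4) or macrophages (C1QC and C1QB) was called in any of the 8 comparisons.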

How the data were processed

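RNA of 15 testis libraries, 1 per piglet, was sequenced as short reads. The authors deposited a single table of raw read counts per gene, made in the CLC Genomics Workbench from trimmed reads that were mapped to a curated library of porcine genes first and to the Ensembl pig genome second. Whether the counts hold the reads of both steps was not determined, and the strand setting was not given in the sources used here. Of the sample columns, 0 were unused. Groups came from the labels. The unnumbered columns of Sow and Soy were given no replicate number.

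Genes with enough reads (filterByExpr, minimum count 10) numbered 15634 over the 14 tested libraries and 15328 over all 15. The software was edgeR 4.0.16 and limma 3.58.1, run under R 4.3.3, with DESeq2 1.42.0 for alternatives. After TMM scaling, all 5 diets entered 1 quasi-likelihood fit of edgeR without a block, each comparison had its F test, and a call needed at least a 2-fold change besides a p of 0.05 or less after Benjamini-Hochberg adjustment. The SE is the log2 fold change divided by the root of F, and 95% intervals use 13.4 degrees of freedom. Log2 CPM had a prior count of 1. The fitting code was tested on simulated data. Positions are from RefSeq (Sscrofa11.1), where 6 of 6 members matched by older symbols. Sequences were not used here.

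The members and 16 gene lists, 9 of them of cell type markers, were chosen with earlier results of these data known. The genes named are all members, the 3 genes with the highest r to each tested member, up to 4 called genes per list and comparison or, for a list without a call, its 2 most abundant genes, and others where said. From lists with a call, TGFBR3, LTBP1, SPARC, FBLN1, SFRP1 and DKK3 were also named, after their values were seen.

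Whether replicate numbers pair libraries was checked from deviations from the diet means. Same-numbered libraries of Milk and M + G had r = 0.233, 0.51 and 0.425 across genes, so pairing by number was tried for these diets as an alternative. The labels give no pairing of piglets, and Sow 3 had r = 0.499 with Soy 3 and 0.308 with Milk 3. Whether any numbers are pairs is therefore not known. Same-numbered libraries of M + E2 had r from −0.339 to −0.0643 with Milk and from −0.147 to 0.123 with M + G. Alternatives were the replicate block, all 3 Sow libraries, only the compared diets, each library left out, no filter, at least 10 reads in every library, size factors or the Wald test of DESeq2, the exact test of edgeR, adjusted p alone and, chosen after seeing the data, Milk 2, Soy 3 and M + G 2 left out together.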

Additional observations from a re-analysis of the deposited data

How the results depend on the processing

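The 40 differences between diets for the 5 tested members were recomputed under the alternatives, which gave 625 values. Of these, 587 kept their direction and their side of the threshold, 34 changed sign and 4 passed the threshold. The number of members called was 0, and it was 1 in M + E2 against Milk and 1 in Soy against M + E2 with edgeR's exact test. With each library left out in turn, the number of members called was 0 to 1 in M + E2 against Milk and in M + G against Sow and 0 in the other comparisons. The cause of these changes was not tested. Among the values that changed sign, the difference of CCN5 in Soy against Sow was 0.09 with all 3 Sow libraries. With the replicate block it was 0.14, CCN3 in Soy against Milk was 0.38 and CCN4 was 0.01, and the block changed no call of a member. It changed the calls over the whole table. Of 15697 genes tested with it, 3238 were called in M + E2 against Sow, 2048 in M + G against Sow and 2477 in Soy against Sow. Without the block these counts were 781, 9 and 2. In each other comparison, at most 17 genes were called with the block. Under the block, THBS4 in Soy against M + E2 was no longer called (adjusted p = 0.0855). With the block on Milk and M + G alone, M + G differed from Milk by −0.49 in CCN1, −0.51 in CCN2 and −1.0 in CCN3, each at an adjusted p of 0.746. With Milk 2, Soy 3 and M + G 2 left out, CCN2 against Sow was −0.43 in M + G and −0.30 in Soy, CCN5 in Soy against Sow 0.07, CCN4 in M + G against Milk −0.26, and Soy against M + E2 was −0.18 in CCN1 and −0.22 in CCN4. With single libraries left out, M + E2 against Sow ranged from −0.74 to 0.04 in CCN2 and from −0.51 to 0.35 in CCN3, and M + E2 against Milk from −0.12 to 0.12 in CCN5. Against Sow, CCN2 ranged from −0.43 to 0.82 in M + G and from −0.30 to 0.96 in Soy, and CCN5 from −0.22 to 0.30 in Soy and from −0.01 to 0.49 in Milk. M + G against Milk ranged from −1.34 to 0.35 in CCN1, −1.12 to 0.08 in CCN2, −2.27 to 0.14 in CCN3 and −0.45 to 0.38 in CCN4. Soy against Milk ranged from −0.99 to 0.25 in CCN2, −2.11 to 1.33 in CCN3 and −0.58 to 0.13 in CCN4. Soy against M + E2 ranged from −0.18 to 1.14 in CCN1 and −0.22 to 0.49 in CCN4. Where a diet kept fewer libraries, they were assumed to vary like those of the other diets. Over the whole table, 781 genes were called in M + E2 against Sow and 2767 with all 3 Sow libraries, 1846 with only the compared diets, 1376 with the DESeq2 Wald test and 6 when any 1 M + E2 library was left out. In M + G against Sow the first 4 of these counts were 9, 1585, 793 and 343, and 1 to 3 genes were called when 1 M + G library was left out. Depth limited CCN6, with at most 6 reads per library, whereas the lowest count of a tested member was 45 reads.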
